A study of Mus musculus with 48 samples.

Results

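Deptor encodes an inhibitor of the growth-controlling kinase mTOR. Its transcript was described here together with those of 7 further mTOR regulators, Mtor, Rptor, Rictor, Sesn2, Ddit4, Tsc1 and Tsc2, across 8 doses of the dioxin TCDD in mouse jejunal epithelium. Deptor was chosen because its ratio to vehicle was seen to be higher at 10 and 30 µg/kg, so its own values are given as a description, with no test. The question put to the other 7 genes was whether they also moved. All probes that the array's annotation assigns to the 8 genes were taken, 24 of the 41085 probes in the table. All 8 genes are among the 13065 genes tested.

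The animals were female C57BL/6 mice gavaged with TCDD or with sesame oil as vehicle, at an interval of 4 days for 28 days. The 8 doses rose from 0.01 to 30 µg/kg. TCDD is a persistent ligand of the aryl hydrocarbon receptor, AHR, a transcription factor. RNA of 1 treated and 1 vehicle animal was hybridised together on a 2-colour Agilent array, and a 2nd array carried the same pair with the dyes exchanged. Each dose has 3 such pairs, which makes 24 pairs on 48 arrays. The 24 treated animals are all different, whereas the same 3 vehicle animals serve every dose, 1 for each pair number. Values are log2 ratios of treated over vehicle, centred on the median of each array and averaged over the 2 arrays of a pair. A ratio therefore carries no absolute level, and ratios cannot order the genes by abundance. In RNA of a whole tissue layer, fewer cells of a type and less RNA per cell cannot be told apart.

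As background, mTOR works in a pair of protein complexes. Complex mTORC1, defined by the subunit raptor (gene Rptor), promotes protein synthesis and restrains autophagy when growth factors and amino acids are plentiful. Complex mTORC2, defined by rictor (gene Rictor), phosphorylates AKT and SGK kinases. DEPTOR binds mTOR in both complexes and restrains its kinase activity. Hamartin and tuberin, the products of Tsc1 and Tsc2, form the complex that switches off RHEB, the activator of mTORC1. DDIT4, also called REDD1, acts through that complex under stress and after glucocorticoids, and sestrin 2 (gene Sesn2) restrains mTORC1 when leucine is scarce.

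Deptor was measured by 2 probes, A_51_P445841 and A_52_P661503, both with values on all 48 arrays. At 30 µg/kg its log2 ratio was 1.05, 1.13 and 1.09 in pairs 1, 2 and 3, a mean of 1.09 ± 0.04 (SD, n = 3) or 2.13-fold. The 3 pairs given 10 µg/kg had 0.54, 0.44 and 0.72, a mean of 0.56 ± 0.14 (SD, n = 3) or 1.48-fold. All 3 pairs at 30 µg/kg lay above all 3 pairs at 10 µg/kg. At 3 µg/kg the pairs had 0.42, 0.13 and 0.18 (mean 0.24 ± 0.15, SD, n = 3). At 1 µg/kg they had 0.36, 0.03 and 0.18 (mean 0.19 ± 0.16, SD, n = 3). The lowest of these 6 pairs was pair 2 at both doses, and none reached the lowest pair at 10 µg/kg.

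The 4 lowest doses gave Deptor ratios of similar size. At 0.3 µg/kg the pairs had 0.25, 0.63 and -0.15 (mean 0.24 ± 0.39, SD, n = 3), and the value of pair 2 exceeded the pairs 1 and 2 at 10 µg/kg. At 0.1 µg/kg they had 0.07, 0.10 and 0.19, at a mean of 0.12 ± 0.06 (SD, n = 3). The spread at 0.3 µg/kg was thus several times that at 0.1 µg/kg. At 0.03 µg/kg the pairs had 0.26, -0.03 and 0.18 (mean 0.14 ± 0.15, SD, n = 3). At 0.01 µg/kg they had 0.32, 0.01 and 0.20 (mean 0.18 ± 0.16, SD, n = 3). Of the 18 pairs below 10 µg/kg, 16 were above 0, with a median of 0.18.

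In descending order of the mean, the doses ran 30, 10, 0.3, 3, 1, 0.01, 0.03 and 0.1 µg/kg. Among neighbours in this order, only 30 and 10 µg/kg had pairs that did not overlap, with means 0.53 apart. The share of all genes with such a separation was not counted. The other neighbouring doses overlapped, so no order among the 6 doses up to 3 µg/kg holds beyond the spread between pairs. Because each vehicle animal serves all doses, doses can also be set against each other within a vehicle animal. The difference of 30 minus 10 µg/kg was 0.52, 0.69 and 0.37 in log2 units for the vehicle animals of pairs 1, 2 and 3. The difference of 10 minus 3 µg/kg was 0.12, 0.31 and 0.55. The mean of 10 and 30 minus the mean of 0.01 to 0.3 µg/kg was 0.57, 0.60 and 0.80 for the 3 vehicle animals. All these within-animal differences were above 0. Dose, which includes the doses that chose Deptor, accounted for 80.7% of its sum of squares over the 24 pairs and the vehicle animal for 1.70%.

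**Figure D1:**
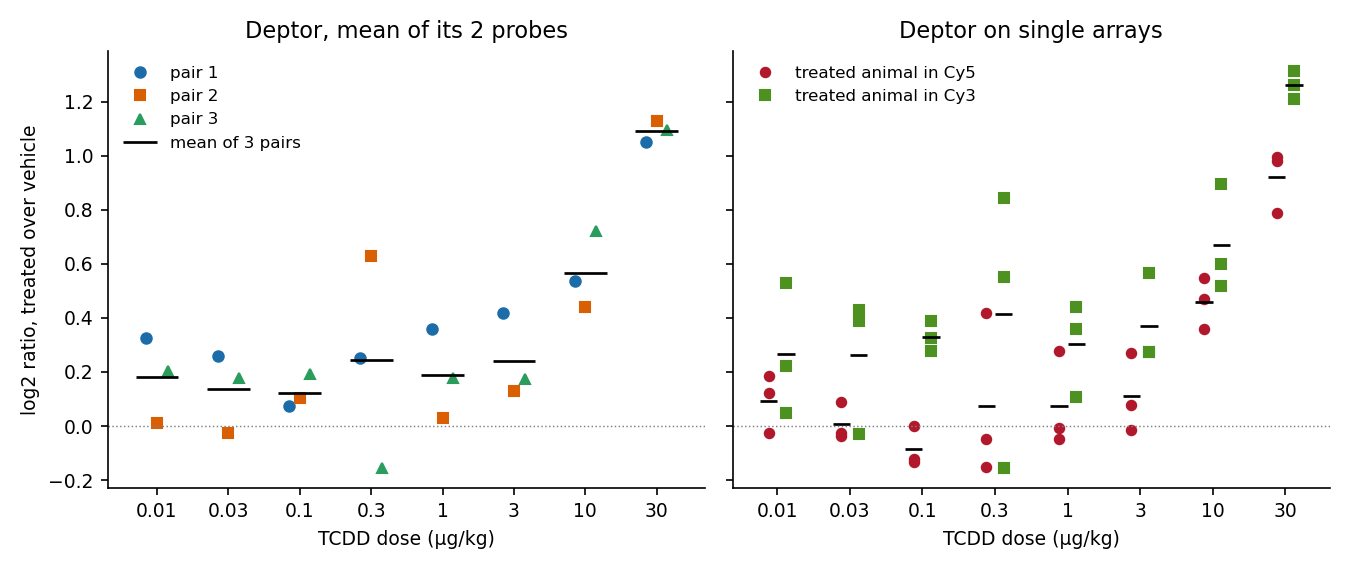
Deptor log2 ratio of treated over vehicle (y axis) by TCDD dose in µg/kg (x axis). Left, each point is 1 animal pair and the line is the mean of the 3 pairs; right, each point is 1 array, by the dye of the treated animal, and lines are means of 3 arrays. The pairs at 30 µg/kg sit between 1.05 and 1.13, above every other pair, and arrays labelling the treated animal with Cy3 sit above those labelling it with Cy5 on average.

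Both probes of Deptor belong to the values that chose it, and they gave the same picture. At 30 µg/kg the mean log2 ratio was 1.08 ± 0.11 (SD, n = 3) for A_51_P445841 and 1.10 ± 0.03 (SD, n = 3) for A_52_P661503. For 10 µg/kg these means were 0.57 ± 0.12 and 0.56 ± 0.22 (SD, n = 3 each). Over the 24 pairs, which share arrays and vehicle animals, the 2 probes had a Pearson r of 0.93. The dye of the treated animal shifted the level but not the order of the high doses. Averaged over the 24 arrays of an orientation, Deptor was at 0.21 with the treated animal in Cy5 and at 0.48 with it in Cy3. The means at 30 µg/kg were 0.92 in Cy5 and 1.26 in Cy3, and those at 10 µg/kg were 0.46 and 0.67. Each of the 12 single arrays of the 2 highest doses gave Deptor a ratio over 0, from 0.36 upward. At 0.01 to 3 µg/kg it was above 0 on 7 of 18 arrays in Cy5 and on 16 of 18 in Cy3. The offset between orientations was thus present at low and at high doses, and each pair's mean holds both orientations equally.

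Among the 13065 genes, 28 had a higher mean log2 ratio than Deptor at 30 µg/kg and 38 at 10 µg/kg. The ratios of AHR target genes are given beside Deptor for comparison. Their sign at high doses was the basis for reading positive values as higher in the treated animal. Their direction here follows from that choice and is no separate mark of exposure. Cyp1a1, a cytochrome P450 and the standard AHR target, had log2 ratios of 2.66, 3.25 and 3.33 at 30 µg/kg and rose by 3.08 ± 0.37 (SD, n = 3; limma adjusted p 2.35e-04). It rose at 10 µg/kg by 2.64 ± 0.70 (SD, n = 3; limma adjusted p 0.00594). At 3 µg/kg its pairs had 0.99, 2.61 and 2.56 (mean 2.05 ± 0.92, SD, n = 3), a dose at which Deptor was at 0.24. Tiparp, a gene of the PARP family induced by AHR, rose at 30 µg/kg by 1.47 ± 0.26 (SD, n = 3; limma adjusted p 7.24e-05) and was at 0.46 ± 0.12 (SD, n = 3) at 10 µg/kg. The receptor gene Ahr rose by 0.86 ± 0.26 (SD, n = 3; limma adjusted p 6.78e-04) and the cytochrome P450 gene Cyp2s1 by 0.69 ± 0.19 (SD, n = 3; limma adjusted p 4.43e-04) at 30 µg/kg. Nqo1, a quinone reductase, was at -0.54, 0.59 and 0.58 in the 3 pairs (mean 0.21 ± 0.65, SD, n = 3) and was not called. In all, 4 of the 5 measured genes of this list passed the test at 30 µg/kg, against 2.17% of all genes. At 10 µg/kg 1 of 5, Cyp1a1, passed, against 0.214%.

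A gene is called here when its Benjamini-Hochberg adjusted p over all 13065 genes is under 0.05 in limma. By that rule 284 genes were called at 30 µg/kg, 2.17% of those tested, 154 higher and 130 lower. The count at 10 µg/kg was 28 genes, 0.214%. Without centring of the arrays the calls at 30 µg/kg split into 114 higher and 447 lower. With the vehicle animal as a block, 703 genes were called at 30 µg/kg and 68 at 10 µg/kg. The 7 members other than Deptor are read against these shares.

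None of the 7 others was called at any dose in the fit without a block. With the vehicle animal as a block 1 of 7, Tsc2 at 30 µg/kg, was called, and none at the other doses or for either contrast. At 30 µg/kg 0 of 7 were called by limma and 1 of 7, Tsc2, had an unadjusted p under 0.05, as did 16.2% of all genes. The limma count at 10 µg/kg was also 0 of 7, and 0 of 7 had an unadjusted p under 0.05, against 7.23% of all genes. At 0.1 and 0.3 µg/kg 0.0306% and 0.138% of all genes were called, and at the remaining 4 doses 0%. At these 6 doses 0 of 7 were called and 0 of 7 had an unadjusted p under 0.05 in limma. For the slope on log10 dose, with 0.589% of all genes called, 0 of 7 were called, and 0 of 7 had an unadjusted p under 0.05. For the mean of 10 and 30 minus the mean of 0.01 to 0.3 µg/kg, with 0.873% called, the limma counts were again 0 of 7 for both. The member means at 30 µg/kg ran from -0.13 for Mtor to 0.23 for Tsc2, against 1.09 for Deptor.

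**Figure D2:**
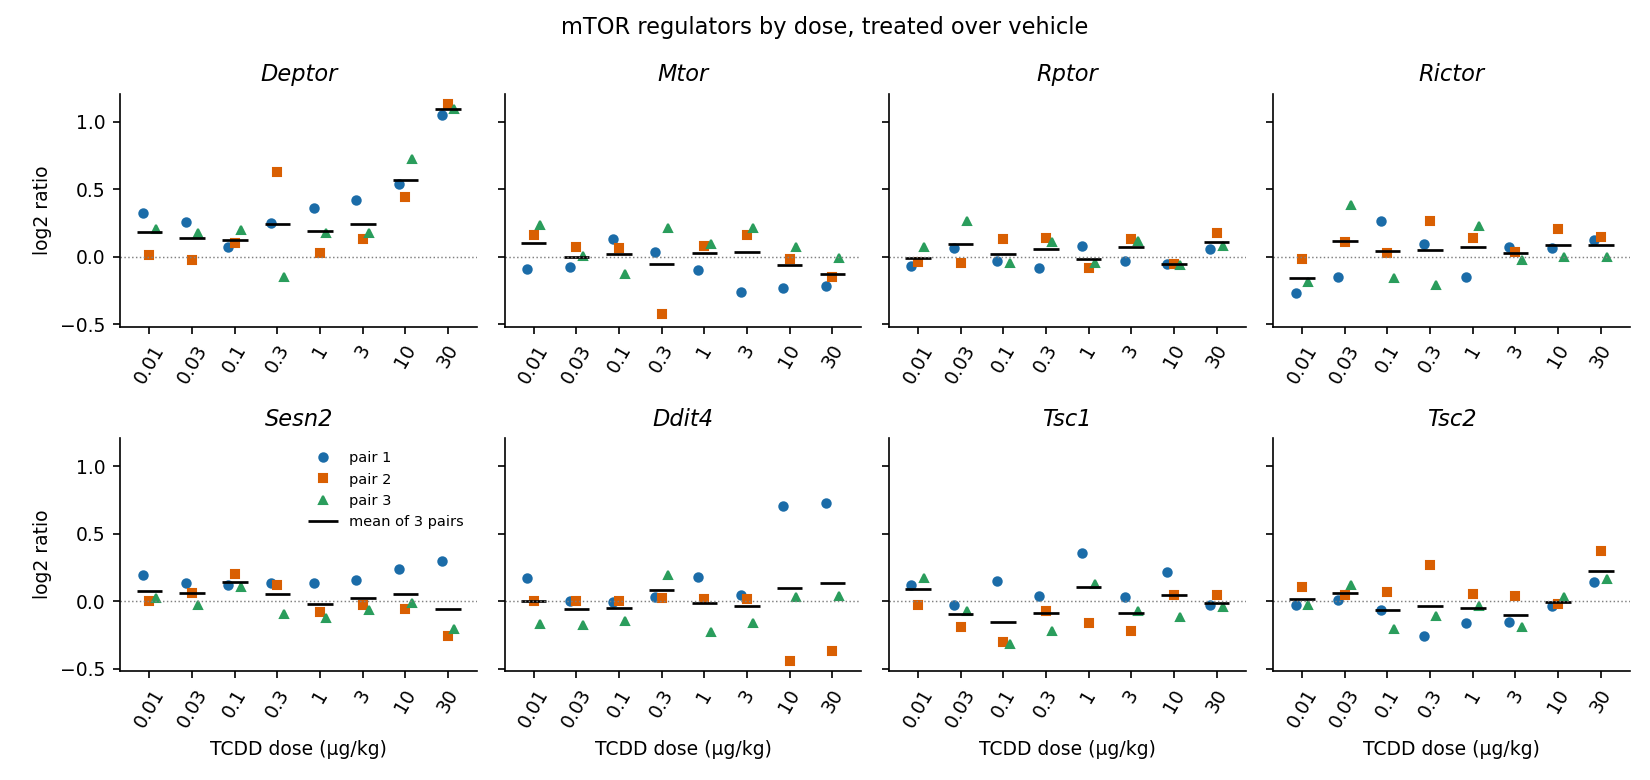
Log2 ratio of treated over vehicle (y axis, the same in all panels) by TCDD dose in µg/kg (x axis) for the 8 mTOR regulators. Points are animal pairs, numbered by their vehicle animal, and lines are means of 3 pairs. Deptor stands at 1.09 at 30 µg/kg, the means of the 7 others stay between -0.16 and 0.23, and the pairs of Ddit4 spread at 10 and 30 µg/kg.

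The core of both complexes was described first. Mtor, the kinase itself, had log2 ratios of -0.22, -0.15 and -0.01 at 30 µg/kg (mean -0.13 ± 0.11, SD, n = 3; limma adjusted p 0.588). Its 95% interval of -0.34 to 0.09 covers both no change and a moderately lower level. The pairs at 10 µg/kg had -0.23, -0.02 and 0.07 (mean -0.06 ± 0.15, SD, n = 3; limma adjusted p 0.923). Over all doses Mtor ran from -0.42 to 0.23, and its lowest value was pair 2 at 0.3 µg/kg. In that pair probe A_52_P67643 had -0.73 and probe A_51_P282179 had -0.12. That is the same pair in which Deptor was high for its dose. Over the 24 pairs, which share vehicle animals and include the doses that chose Deptor, Mtor had a Pearson r with Deptor of -0.58, and 12930 of the genes had a higher r. The 2 probes of Mtor had an r of 0.43 with each other.

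Rptor, the mTORC1 scaffold raptor, had log2 ratios of 0.06, 0.18 and 0.08 at 30 µg/kg (mean 0.11 ± 0.06, SD, n = 3; limma adjusted p 0.394). Its pairs at 10 µg/kg had -0.05, -0.05 and -0.06 (mean -0.06, limma adjusted p 0.853), so the pairs of both doses lay on opposite sides of 0 without overlap, while the 2 doses were each within the error of 0. The share of all genes that separate in this way was not counted. Arrays at 30 µg/kg gave Rptor an average of 0.0064 in the Cy5 orientation of the treated animal and 0.21 in the Cy3 orientation. The probes of Rptor opposed each other. At 30 µg/kg probe A_51_P413031 had 0.42, -0.005 and 0.01 in the 3 pairs, and A_52_P229320 had -0.30, 0.36 and 0.15. Over the 24 pairs the Pearson r of the 2 probes was -0.52. In single pairs the probes thus pointed opposite ways. A further 2 probes of Rptor had values on 33 and 6 of the 48 arrays and were not used.

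Rictor, the scaffold of mTORC2, was measured by 1 complete probe of its 8. Its log2 ratios at 30 µg/kg were 0.12, 0.14 and -0.005 (mean 0.09 ± 0.08, SD, n = 3; limma adjusted p 0.718). Those at 10 µg/kg were 0.06, 0.20 and -0.0004 (mean 0.09 ± 0.10, SD, n = 3; limma adjusted p 0.859). Both doses therefore gave the same mean, with a 95% interval at 30 µg/kg of -0.12 to 0.29. The other 7 probes had values on 3 to 39 arrays.

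The TSC complex, the brake on mTORC1, followed. Tsc2, encoding tuberin, had the highest mean of the 7 at 30 µg/kg, with log2 ratios of 0.14, 0.37 and 0.17 (mean 0.23 ± 0.13 or 1.17-fold, SD, n = 3; limma adjusted p 0.141, unadjusted p 0.00874). Tsc2 at 10 µg/kg was at -0.03, -0.02 and 0.04 (mean -0.01 ± 0.04, SD, n = 3; limma adjusted p 0.996). The 3 pairs at 30 µg/kg lay above the 3 pairs at 10 µg/kg, and the share of all genes that separate in this way was not counted. With the vehicle animal as a block the limma adjusted p of Tsc2 at 30 µg/kg was 0.0339, past the threshold, in a fit that called 5.38% of all genes. That fit takes the differences between the 3 vehicle animals out of the error. They made up 30.3% of the sum of squares of Tsc2, so this p holds for these 3 vehicle animals only. Over all alternatives run, the limma adjusted p of Tsc2 at 30 µg/kg ranged from 0.00541 to 0.974. Tsc2 had an offset between orientations, at 0.20 in Cy5 and -0.19 in Cy3 over 24 arrays each, which a pair's mean holds in equal parts. With the treated animal in Cy5 the 3 arrays at 30 µg/kg had 0.32, 0.68 and 0.38, and with it in Cy3 they had -0.04, 0.07 and -0.05. Their means, 0.46 and -0.01, were the highest of the 8 doses in each orientation. Tsc2 rests on 1 probe, and its Pearson r with Deptor over the 24 pairs was 0.53.

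Tsc1, encoding hamartin, had log2 ratios of -0.03, 0.04 and -0.04 at 30 µg/kg (mean -0.01 ± 0.05, SD, n = 3; limma adjusted p 0.971). Tsc1 at 10 µg/kg had 0.22, 0.05 and -0.11 (mean 0.05 ± 0.17, SD, n = 3; limma adjusted p 0.926). The 2 partners of the complex thus had different means at 30 µg/kg, and the difference between them was not tested. Tsc1 rests on 1 complete probe of 4. A probe with values on 47 arrays, A_52_P19245, had -0.13, -0.84 and 0.17 at 30 µg/kg (mean -0.27 ± 0.52, SD, n = 3; limma adjusted p 0.518 over probes) and did not follow the complete probe.

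The stress-responsive inhibitors were Sesn2 and Ddit4. Sesn2, a leucine sensor of the sestrin family, had log2 ratios of 0.30, -0.26 and -0.21 at 30 µg/kg (mean -0.05 ± 0.31, SD, n = 3; limma adjusted p 0.809). Sesn2 at 10 µg/kg had 0.24, -0.05 and -0.02 (mean 0.06 ± 0.16, SD, n = 3; limma adjusted p 0.903). Pair 1 was the highest at both doses. The 2 probes of Sesn2 differed, with a Pearson r of 0.23 over the 24 pairs. At 30 µg/kg probe A_51_P161354 had 0.19, 0.02 and 0.03, and A_52_P154710 had 0.41, -0.53 and -0.45. The negative values of pairs 2 and 3 at 30 µg/kg thus came from A_52_P154710 alone. The vehicle animal accounted for 50.4% of the sum of squares of Sesn2 over the 24 pairs and dose for 16.9%. The pairs that share the vehicle animal of pair 1 averaged 0.18 over all doses, against -0.004 and -0.05 for the other two.

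Ddit4 had the widest pair-to-pair spread of the 8 genes, and that spread was at the high doses. Its log2 ratios at 30 µg/kg were 0.73, -0.37 and 0.04 (mean 0.13 ± 0.55, SD, n = 3; limma adjusted p 0.745). At 10 µg/kg they were 0.70, -0.44 and 0.03 (mean 0.10 ± 0.57, SD, n = 3; limma adjusted p 0.911). Pair 1 was high, pair 2 low and pair 3 near 0 at both doses, although the treated animals differ. In the 18 pairs at 0.01 to 3 µg/kg, which include the same 3 vehicle animals, Ddit4 stayed between -0.22 and 0.20 with a median of 0.01. Its residual SD of 0.31 was at or above that of 91.3% of all genes. The high pair at 30 µg/kg was high in both orientations, at 0.56 in Cy5 and 0.89 in Cy3, whereas the low pair was at -0.60 in Cy5 and -0.14 in Cy3.

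Glucocorticoid target genes are shown beside Ddit4, itself a known glucocorticoid target. Tsc22d3, which encodes the glucocorticoid-induced leucine zipper, had 1.12, -1.04 and 0.08 in pairs 1, 2 and 3 at 30 µg/kg. At 10 µg/kg it had 1.14, -0.83 and -0.37. Pair 1 was thus high and pair 2 low, as for Ddit4. Fkbp5, a co-chaperone of the glucocorticoid receptor, had 0.83, -0.93 and 0.47 at 30 µg/kg, and its values were 1.58, -0.78 and 0.03 at 10 µg/kg. Sgk1, a kinase that is both a glucocorticoid target and a substrate of mTORC2, had 1.02, -1.997 and 0.17 at 30 µg/kg, where its spread was the widest of these genes, against 1.51, -1.28 and -0.19 at 10 µg/kg. Per1, a clock gene that glucocorticoids induce, had 0.26, -0.72 and 0.48 at 30 µg/kg, so its highest pair was pair 3. The receptor gene Nr3c1 was at -0.14, 0.19 and -0.05 at that dose, so its pairs 1 and 2 had signs opposite to those of Ddit4. Of this list 0 of 5 genes were called at 10 or at 30 µg/kg by limma, and 0 of 5 had an unadjusted p under 0.05 at either dose. Over all genes, 7.23% at 10 and 16.2% at 30 µg/kg had such a p. Unlike Ddit4, Tsc22d3, Fkbp5 and Sgk1 also spread at the low doses: at 0.01 to 3 µg/kg Tsc22d3 ran from -0.85 to 0.50, Fkbp5 from -1.03 to 0.51 and Sgk1 from -1.20 to 0.45. Nr3c1 ran from -0.18 to 0.26 there, a range like that of Ddit4.

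**Figure D3:**
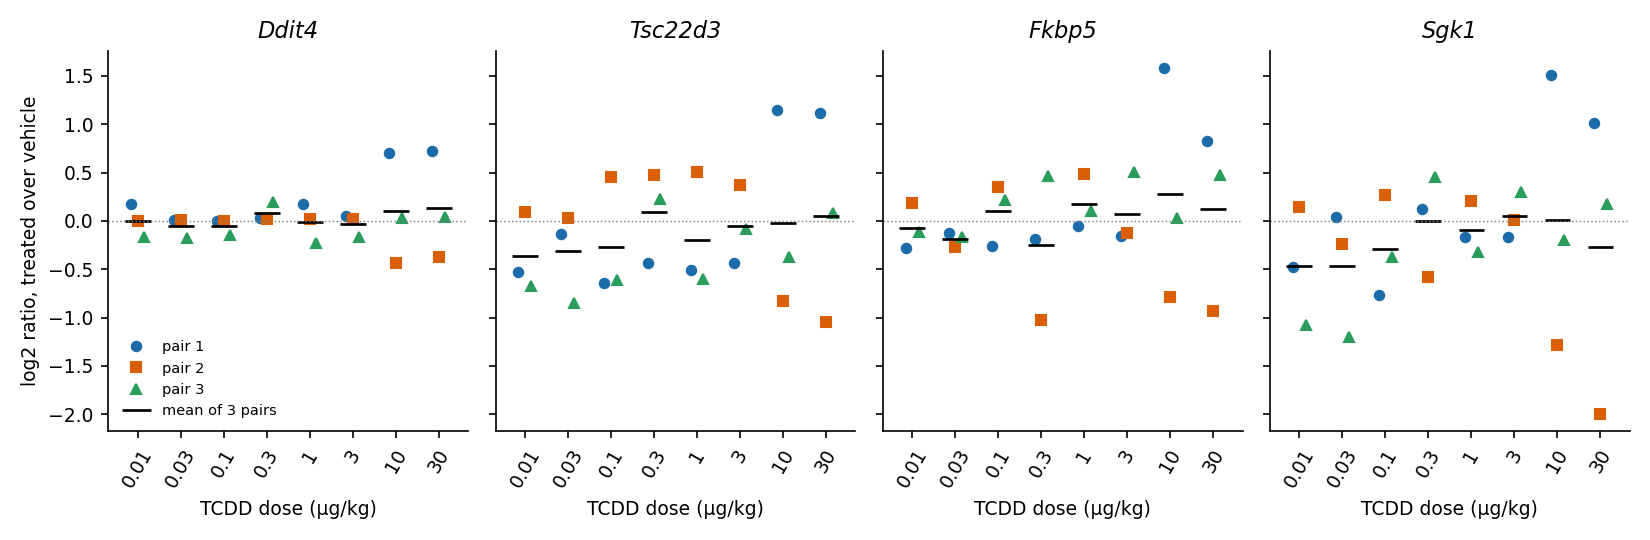
Log2 ratio of treated over vehicle (y axis) by TCDD dose in µg/kg (x axis) for Ddit4 and the glucocorticoid targets Tsc22d3, Fkbp5 and Sgk1. Points are animal pairs and lines are means of 3 pairs. At 10 and 30 µg/kg pair 1 was the highest and pair 2 the lowest of the 3 pairs for all 4 genes, and no mean passed the test. Per1 and Nr3c1, the other genes of the list, are not shown. At 30 µg/kg Per1 was highest in pair 3 and Nr3c1 in pair 2.

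Sequences upstream of the members are shown for Ddit4, with its pair-dependent values, and for Tsc2, with the highest mean of the 7 at 30 µg/kg. They were searched for GCGTG, the core of the element that AHR binds with its partner ARNT, on both strands (GCGTG or CACGC). The RefSeq promoter table of build GRCm38.p6, with 250 bases before and 50 after each gene's start, matched 7 of the 8 members (all but Deptor). The core was found in 5 of the 7, Rptor, Rictor, Ddit4, Tsc1 and Tsc2, and not in those windows of Mtor and Sesn2. It was present in 32.4% of the 32851 windows of the same length in the table. A match is a description of the letters, not a binding site. The windows are chr10:59951721-59952020 for Ddit4 and chr17:24632578-24632877 for Tsc2, both on the minus strand, written 5′ to 3′ with the core or its complement in capitals.
Ddit4: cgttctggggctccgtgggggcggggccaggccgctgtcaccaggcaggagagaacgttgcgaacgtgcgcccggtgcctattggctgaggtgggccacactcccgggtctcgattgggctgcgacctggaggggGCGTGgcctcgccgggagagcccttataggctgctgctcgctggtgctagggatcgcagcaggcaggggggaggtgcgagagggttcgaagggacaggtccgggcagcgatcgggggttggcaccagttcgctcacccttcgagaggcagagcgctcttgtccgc
Tsc2: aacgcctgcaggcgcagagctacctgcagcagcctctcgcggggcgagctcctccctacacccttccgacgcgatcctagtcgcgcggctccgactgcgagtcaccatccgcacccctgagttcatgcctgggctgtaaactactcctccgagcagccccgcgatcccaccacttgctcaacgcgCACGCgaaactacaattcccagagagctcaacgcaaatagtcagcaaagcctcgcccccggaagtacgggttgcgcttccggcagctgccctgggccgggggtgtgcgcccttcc
Each window holds 1 match, at position -115 in Ddit4 and -65 in Tsc2, counted from the start that the promoter table uses. Neither gene was called at any dose in the test without a block.

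**Figure D4:**
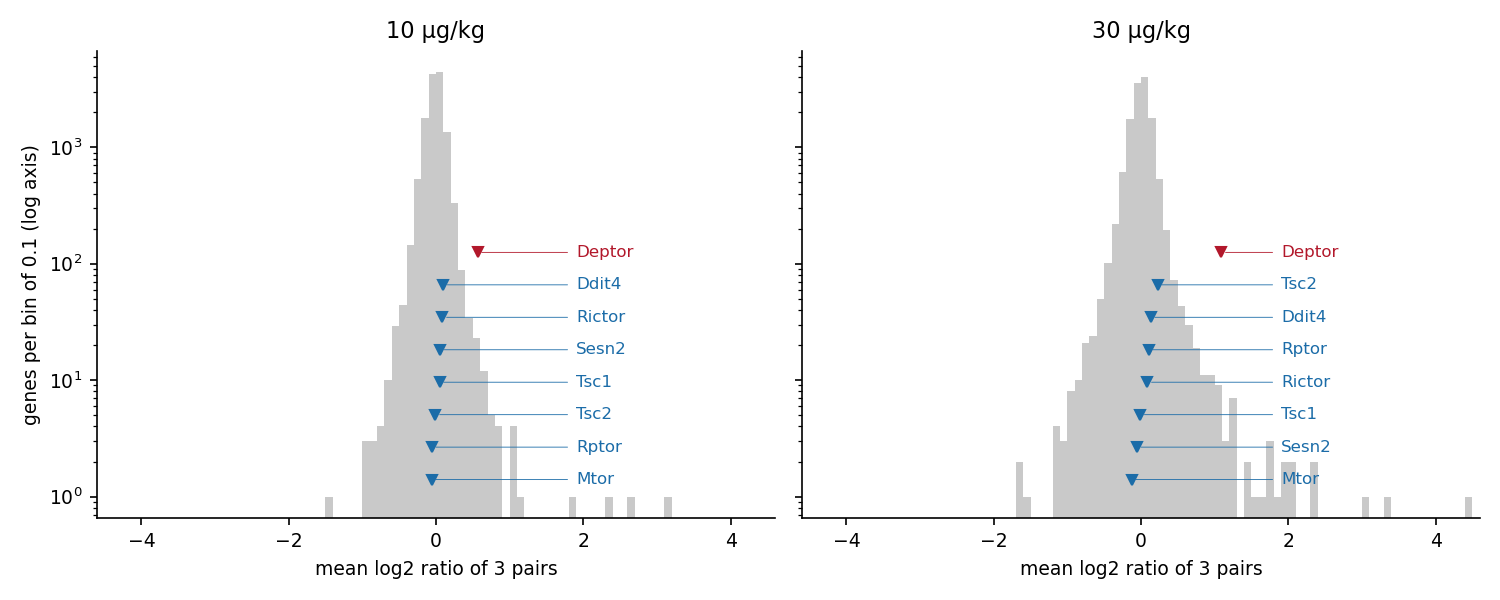
Histograms of the mean log2 ratio of 13065 genes (x axis) with genes per bin on a log y axis, at 10 and 30 µg/kg. Triangles mark the 8 mTOR regulators at their means, and their heights only separate the names. Deptor stands at 0.56 and 1.09, to the right of the 7 others, which lie between -0.06 and 0.10 at 10 µg/kg and between -0.13 and 0.23 at 30 µg/kg.

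The wider pathway was described by 5 lists of 96 further genes, of which 76 have a value. At 30 µg/kg 2 of the 76 were called, 1 higher and 1 lower, which is 2.63% against 2.17% of all genes. There, 15 of 76 or 19.7% had an unadjusted p under 0.05, against 16.2% of all genes. At 10 µg/kg 0 were called by limma with 5 or 6.58% at an unadjusted p under 0.05, against 7.23%. At 10 and 30 µg/kg these shares lie near those of all genes. At 0.3 µg/kg 1 of 76 was called by limma, 1.32% against 0.138% of all genes. There, 7 or 9.21% had an unadjusted p under 0.05, against 9.74%. The called gene was Prkaa2, a catalytic subunit gene of the energy sensor AMPK. Prkaa2 fell by 0.28 ± 0.05 on the log2 scale (SD, n = 3; limma adjusted p 0.0366), with -0.30, -0.22 and -0.31 in the 3 pairs. It was at -0.05 ± 0.05 at 10 and -0.09 ± 0.05 at 30 µg/kg (SD, n = 3 each), and no pathway gene was called at the other 5 doses. Among those 5 doses the share with an unadjusted p under 0.05 in limma was highest at 1 µg/kg. It was 8 of 76 or 10.5% there, against 5.24% of all genes. The median of the 76 at 30 µg/kg was -0.02, against 0.01 for all genes. None reached 1.5-fold in either direction at 30 µg/kg, which 1.47% of all genes did. For the slope and for the high minus low contrast 0 of 76 were called by limma, with 14 (18.4%) and 11 (14.5%) at an unadjusted p under 0.05, against 12.3% and 12.2% of all genes. Deptor, chosen for being higher at the top doses, had a ratio at 30 µg/kg above that of all 76.

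Insr, the insulin receptor gene, fell by 0.25 ± 0.07 on the log2 scale at 30 µg/kg (SD, n = 3; limma adjusted p 0.0233), with -0.17, -0.32 and -0.24 in the 3 pairs. At 10 µg/kg it was at -0.03 ± 0.02 (SD, n = 3). Usp11, a deubiquitinase in the list on DEPTOR turnover, rose by 0.18 ± 0.09 (SD, n = 3; limma adjusted p 0.0497), with 0.29, 0.14 and 0.13. With the treated animal in Cy5 Usp11 was at 0.49 and in Cy3 at -0.12, and at 10 µg/kg it was at 0.33 and -0.24, an offset of similar size. Leaving out any single pair at 30 µg/kg ended both calls, with Insr at -0.28, -0.21 and -0.25 and Usp11 at 0.13, 0.21 and 0.21. With the vehicle animal as a block 5 of the 76 were called at 30 µg/kg, 6.58% against 5.38% of all genes, in which case Eef2k, Gsk3b and Ulk2 joined Insr and Usp11. At 0.3 µg/kg that fit called 3 of 76, Csnk1a1, Gsk3b and Prkaa2, 3.95% against 0.689% of all genes. Eef2k, the kinase that inhibits translation elongation, was at 0.35 ± 0.18 (SD, n = 3).

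The calls by list are for 30 µg/kg, where 2.17% of all genes were called. None of the 5 measured genes on complex subunits and assembly was called. Mlst8, the subunit shared by both complexes, was at 0.17 ± 0.06, Prr5l at -0.18 ± 0.02 and Tti2 at 0.13 ± 0.13 (SD, n = 3 each). Of the 18 genes on growth factor input, 1 fell (Insr), while Gsk3b, a kinase inhibited by AKT, was at -0.25 ± 0.23 and Pik3cb, a catalytic subunit of PI3 kinase, at -0.22 ± 0.16 (SD, n = 3 each). Of the 26 genes on amino acid input none was called. There, Depdc5 and Nprl2, both subunits of the GATOR1 inhibitor of mTORC1, were at 0.32 ± 0.27 and -0.22 ± 0.11 (SD, n = 3 each), on opposite sides of 0. Sesn3, a sestrin, had the lowest mean of the pathway, -0.38 ± 0.11 (SD, n = 3; limma adjusted p 0.210). Of the 19 substrates and effectors none was called, with Eif4ebp1, the translation repressor that mTORC1 phosphorylates, at 0.35 ± 0.28 and Ulk2, an autophagy kinase, at -0.19 ± 0.06 (SD, n = 3 each). Of the 8 genes on DEPTOR turnover, 1 rose (Usp11), while the casein kinase genes Csnk2a1 and Csnk1a1 were at -0.14 ± 0.03 and -0.11 ± 0.16 (SD, n = 3 each).

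**Figure D5:**
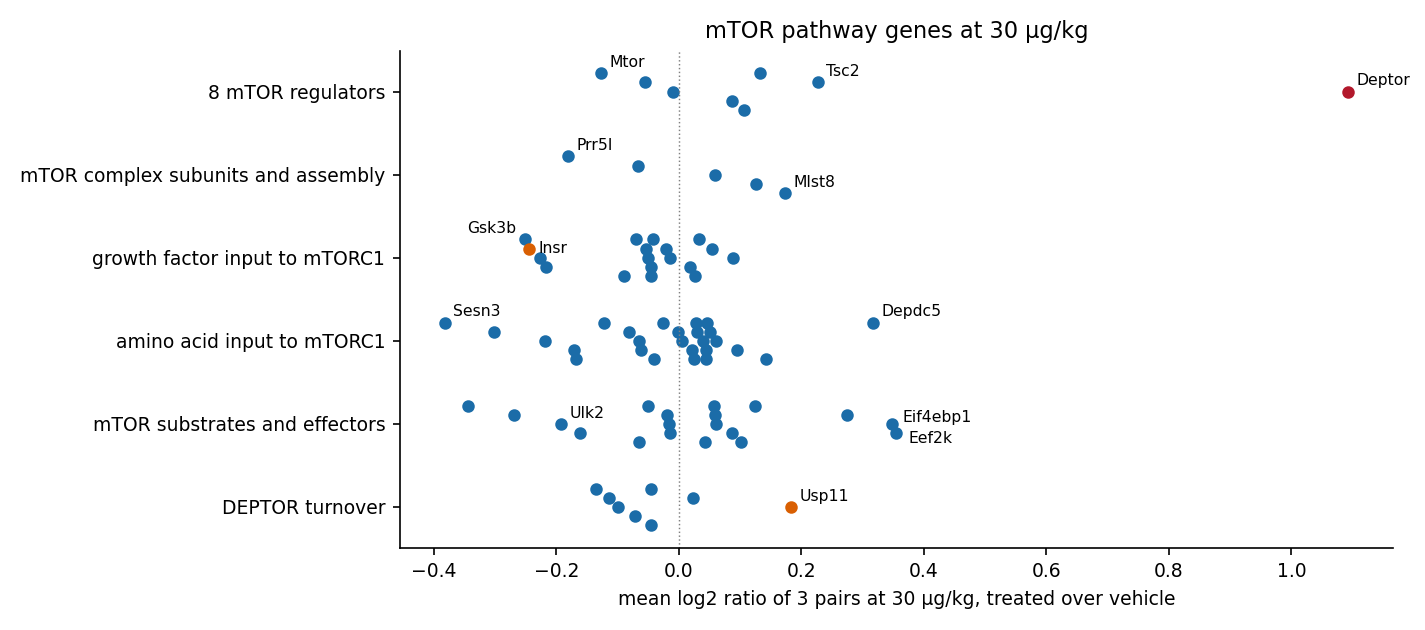
Mean log2 ratio of 3 pairs at 30 µg/kg (x axis) for the 8 mTOR regulators and the 76 other genes of 5 pathway lists (rows; vertical offsets only separate points). Orange points, Insr and Usp11, passed the test; Deptor is red. Deptor stands at 1.09 and the 76 others between -0.38 and 0.35.

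Stress programmes that drive Sesn2 and Ddit4 were examined through their other targets. Of 9 measured targets of the integrated stress response 0 were called by limma at 10 or 30 µg/kg. An unadjusted p under 0.05 was found for 2 (Atf4 and Phgdh) at 10 and 0 at 30 µg/kg, against 7.23% and 16.2% of all genes. Atf4, its central transcription factor, was at -0.37 ± 0.41 at 10 and -0.16 ± 0.39 at 30 µg/kg (SD, n = 3 each). Of 5 measured p53 targets, Cdkn1a, the cell cycle inhibitor p21, rose at 30 µg/kg by 0.64 ± 0.28 (SD, n = 3; limma adjusted p 0.00119). Its pairs had 0.93, 0.36 and 0.62, and the highest was pair 1. The Cdkn1a call held when any 1 pair number was left out and was lost when pairs 1 and 3 at 30 µg/kg, which carry the exocrine pancreas gene signal described at the end, were both left out, with only the 0.36 of pair 2 remaining at that dose. Zmat3, an RNA-binding p53 target, rose at 10 µg/kg by 0.27 ± 0.07 (SD, n = 3; limma adjusted p 0.0181) and was at 0.11 ± 0.04 at 30 µg/kg (SD, n = 3; limma adjusted p 0.255). The Zmat3 call ended with quantile normalization, at 0.24, and on leaving out any single pair at 10 µg/kg, at 0.25, 0.25 and 0.31. With the treated animal in Cy5 Zmat3 was at 0.02 and in Cy3 at 0.52 at 10 µg/kg. The values at 30 µg/kg were 0.12 in Cy5 and 0.11 in Cy3. Mdm2, Ccng1 and Bbc3, the other p53 targets measured, were not called at either dose.

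The genes whose ratios ran most like Deptor over the 24 pairs were ranked by Pearson r, as a description, since the pairs share vehicle animals and the doses that chose Deptor. Rab33a, a small GTPase, had the highest r of 0.89 and was at 0.67 ± 0.18 at 10 and 1.28 ± 0.20 at 30 µg/kg (SD, n = 3 each). Exoc3, an exocyst subunit, had an r of 0.88 with means of 0.37 and 0.59. Cd320, the transcobalamin receptor, had an r of 0.85 with means of 0.20 and 0.62. The odorant receptor gene Olfr419 had an r of 0.84 with means of 0.19 and 0.50. Wdr11, a WD-repeat gene, had an r of 0.84 with means of 1.05 and 1.77, so its ratios were larger than those of Deptor. At the other end stood Ppm1l, a protein phosphatase gene, with an r of -0.79, Thy1, a surface glycoprotein gene, with -0.76, and Glyctk, glycerate kinase, with -0.75. Their means at 30 µg/kg were -0.43, -0.61 and -0.30.

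Exocrine pancreas genes differed between pairs, at low doses as well as at 30 µg/kg. At 30 µg/kg 10 of 12 such genes had an unadjusted p under 0.05 in limma, against 16.2% of all genes, and 0 were called. At 10 µg/kg both counts were 0 of 12. The median of 12 such genes was over 0.50 in 6 pairs, namely pair 2 at 0.03 (2.47), pair 2 at 0.1 (1.45), pair 3 at 0.3 (0.84), pair 1 at 1 (2.04), and pairs 1 and 3 at 30 µg/kg (3.07 and 0.73). In the other 18 pairs it lay near 0, including all 3 pairs at 10 µg/kg and pair 2 at 30 µg/kg, which had the highest Deptor ratio of all, 1.13. Deptor had a median of 0.23 in the 6 pairs with that signal and of 0.23 in the other 18. Ddit4 had medians of 0.11 and 0.003. Over the 24 pairs the Pearson r with the pancreas median was 0.49 for Ddit4, the highest of the 8 members, and 0.14 for Deptor. The low Ddit4 pair at 30 µg/kg was the one without the signal. At 10 µg/kg no pair had the signal, and Ddit4 had the same high and low pairs. The part of the signal in the Ddit4 values was not tested. Smooth muscle markers had medians of -0.12 to 0.17 over the 24 pairs, immune cell markers of -0.22 to 0.18 and crypt markers of -0.25 to 0.58. Single markers stood apart from these medians at 30 µg/kg. Jchain, the joining chain of secreted immunoglobulins, fell by 1.68 ± 0.65 on the log2 scale (SD, n = 3; limma adjusted p 0.0233), with -2.24, -1.83 and -0.96 in the 3 pairs, and was at -0.65 ± 0.49 at 10 µg/kg. The macrophage marker Adgre1 was at -0.46 and the leukocyte marker Ptprc at -0.33 at 30 µg/kg, neither called. At that dose 6 of 10 immune markers, 4 of 7 smooth muscle markers and 2 of 4 crypt markers had an unadjusted p under 0.05 in limma. The share over all genes was 16.2%. All 4 crypt markers measured were above 0 there. Of 10 absorptive enterocyte markers 6, among them Vil1 and Fabp1, hold a value shared by 203 to 335 probes of an array and are not measurements, so the labelled tissue was not checked against them. No probe of the 8 mTOR regulators holds that value. The part of these markers in the results was not tested.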

How the data were processed

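The deposited table holds log2 ratios, as taken here, of 41085 probes on 48 arrays. The base of the logarithm, the sign, the normalization and the filters are not given in the sources used here. Cyp1a1 was positive on average in both dye orientations at high doses, so positive values were taken as higher in the treated animal, in both orientations; this direction is likely, and AHR target genes are its basis. Labelling with Cy3 and Cy5 followed an Agilent manual, per the labels' protocols. A schedule is given in the labels both as daily and as an interval of 4 days, and the latter was used.

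Each array was centred on its median, and the 2 arrays of a pair were averaged. Arrays held 27341 to 33126 values, with medians of -0.10 to 0.08, and 25.0% of all cells were empty. No intensities were used, and the number of pairs limits the precision. Across probes, r between both arrays of a pair ran from -0.25 to 0.54 and was negative in 10 of 24 pairs, and the lowest r between arrays of 1 orientation was 0.04 in Cy5 and -0.07 in Cy3. Complete probes, those measured on every array, numbered 21105, and the 17836 naming 1 gene were averaged to 13065 genes. Names came from the array's annotation of 32600 probes, 32555 of them with 1 symbol, of which 32416 were matched by gene identifier to RefSeq GRCm38.p6.

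Genes were tested in limma 3.58.1 (R 4.3.3, statmod 1.5.0) with 1 mean per dose over all 24 pairs, each mean against 0, two-sided, with Benjamini-Hochberg adjustment over all genes and a threshold of 0.05. A slope on log10 dose and a contrast of high minus low doses used the same rules. The 95% intervals come from that fit, whose spread is shared by all doses. Pairs of equal number had their vehicle animal in common. Their deviations from the dose means correlated across genes with a mean r of 0.28 over 84 combinations, against -0.14 over 168 combinations with another animal and another dose. The labels pair the samples in this way, and a block for the vehicle animal was run as an alternative. P-values measure the spread between these pairs.

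The members and the gene lists were chosen with earlier results of these data known. Named are all 8 members, of each pathway list the genes called at 10 or 30 µg/kg or for the slope and in any case the 3 with the smallest p at 30 µg/kg, the 5 highest and 3 lowest r with Deptor (predicted and clone names skipped), and all measured AHR battery genes. The genes of the stress and glucocorticoid lists, Foxo1, Prkaa2, Csnk1a1 at 0.3 µg/kg, and the single markers were named after their values were seen. The alternatives covered centring, quantile normalization, the block, single dye orientations, left-out pairs, the handling of probes, the pairs in the fit and array weights. Where a pair number was left out for a dose, only its pair at that dose was dropped. For the slope and the high minus low contrast, the pair number was dropped at all doses.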

Additional observations from a re-analysis of the deposited data

How the results depend on the processing

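Deptor was chosen for its rise at 10 and 30 µg/kg in these same arrays. Its direction under other processing is thus a description and no independent support. Deptor kept that direction under every alternative run. At 30 µg/kg it was at 1.03 without centring, 0.93 with quantile normalization, and 0.92 and 1.26 in Cy5 and Cy3 alone. Its slope was 0.15 without both 30 µg/kg pairs with pancreas signal, against 0.21. The 7 others gave 1 call in 2 alternatives, Tsc2 at 30 µg/kg with the vehicle animal as a block and in Cy5 alone, and 0 in the rest. At that dose these 2 fits called 703 and 1506 of the 13065 genes. Of the counts over all settings, 272 stayed within 1.5 times and 92 did not; the cause was not tested beyond fewer pairs or genes. Settings of 1 dye keep each gene's dye offset, which a pair's mean holds in equal parts.

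With the replicate block the called genes numbered 90 at 0.3, 2 at 3, 68 at 10 and 703 at 30 µg/kg, 216 for the slope and 368 for high minus low doses; pathway calls numbered 3 at 0.3 and 5 at 30 µg/kg and 2 for high minus low. All calls without the block were also made with it. In Cy5 alone, calls at the 8 doses numbered 84, 296, 434, 974, 277, 494, 626 and 1506 in rising order of dose, with 39 for the slope and 72 for high minus low, and 9, 5 and 14 pathway genes at 0.3, 10 and 30 µg/kg. In Cy3 alone they numbered 133, 309, 698, 1585, 93, 313, 373 and 873, with 34 and 52 and 12 pathway genes at 0.3 µg/kg. Without centring there were 2 calls at 0.03, 186 at 0.3 and 561 at 30 µg/kg, 49 for the slope, and 4 pathway genes at 0.3 µg/kg. Quantile normalization gave 1, 9 and 138 at 0.03, 0.3 and 30 µg/kg, with 1 pathway gene at 30 and 0 at 0.3 µg/kg. Array weights gave 6, 14, 10, 1, 13 and 103 at 0.03, 0.1, 0.3, 3, 10 and 30 µg/kg, 39 and 71 for the contrasts, and 0 pathway genes at 0.3 and 30 µg/kg. Fits on the 3 pairs of a dose gave 1, 0, 1 and 6 at 0.1, 0.3, 10 and 30 µg/kg and 0 pathway genes at 0.3 and 30 µg/kg. Without both pancreas-signal pairs there were 55 at 30 µg/kg, 2 for the slope, 61 for high minus low and 0 pathway genes at 0.3 and 30 µg/kg. Incomplete probes admitted gave 9 at 0.3 µg/kg and 1 pathway gene, and the median of probes and the removal of shared-value probes gave 1 pathway gene each. Leaving out 1 pair number gave 0 to 2 at 0.1, 4 to 20 at 0.3, 0 to 1 at 3, 12 to 15 at 10 and 121 to 193 at 30 µg/kg, 9 to 163 for the slope and 25 to 89 for high minus low; the pathway gave 0 to 1 at 0.3, 0 to 0 at 30 µg/kg and 0 to 1 for the slope.

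Signs that turned, none of them called in either form except Tsc2 at 30 µg/kg in the settings named above, were Mtor at 10 µg/kg (0.00827 in Cy5), Sesn2 at 30 (0.0332 in Cy5, 0.0796 with its first probe), Ddit4 at 10 (-0.0642 in Cy5) and 30 (-0.0228 in Cy5, -0.37 without the pancreas-signal pairs), Tsc1 at 30 (0.118 in Cy3, 0.0435 without those pairs) and Tsc2 at 10 (0.169 in Cy5) and 30 (-0.00827 in Cy3). With 1 pair number left out, values at 10 µg/kg ran from -0.122 to 0.0275 for Mtor, -0.0350 to 0.112 for Sesn2, -0.204 to 0.367 for Ddit4, -0.0340 to 0.132 for Tsc1 and -0.0270 to 0.00742 for Tsc2, and at 30 µg/kg from -0.232 to 0.0459 for Sesn2, -0.166 to 0.383 for Ddit4 and -0.0366 to 0.00760 for Tsc1. The deposited ratios hold no intensities, so signal over background is not known, and 3 pairs a dose limit what can be called.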
